A study of Danio rerio with 18 samples.

Results

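The mRNAs described here encode 6 factors that carry out or promote shortening of the poly(A) tail, removal of the cap or digestion of an mRNA. They are the mRNAs of BTG4, CNOT7, CNOT8, XRN1, DDX6 and patl1. They were chosen by gene symbol from a table of 27015 zebrafish genes, and each symbol matched 1 gene, so all 6 were measured. The libraries came from pooled wild-type (AB) whole embryos at 6 stages, named egg, 1-cell, 16-cell, 128-cell, 3.5 hpf and 5.3 hpf (hours post fertilization). RNA of each stage was split into a fraction bound to polysomes and an unbound one, and another sample was left unfractionated. No treatment was given, and each of these 18 combinations was sequenced as 1 library after rRNA depletion. Because no condition had a replicate, every p-value below sets an effect against the spread between stages. Positions in the genome are not given, since the files use GRCz10 and no annotation of that build was used here.

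Cytoplasmic decay of an mRNA usually begins with deadenylation, continues with decapping and ends with digestion from the 5' end. The CCR4-NOT complex is the main deadenylase of animal cells, and the adaptors of the BTG and TOB family bring its nuclease subunits to mRNA. Embryos begin life on mRNA stored in the egg and later clear much of it around the time their own genome is activated. In mouse, BTG4 is required for that clearance. mRNAs that carry several ribosomes travel in the polysome-bound fraction, and mRNAs that carry few or none in the unbound fraction.

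The libraries behaved as their stage names imply. Libraries held 30.67 M to 71.65 M reads on transcripts. The 4 stages from egg to 128-cell are called early and the other 2 late. In the unfractionated libraries 10 maternal egg mRNAs summed to 141877 to 171638 normalized counts early, against 74481 (3.5 hpf) and 22327 (5.3 hpf) late. The sum over 11 early zygotic genes was 933 to 1249 early, against 43347 and 137945 late. Among genes of other cell types, 5 blood genes summed to 25 to 51 early and 310 to 311 late, and 10 genes of ovarian follicle cells to 3985 to 7699 early and 4223 to 6034 late. Single genes carried most of the late blood sum and of the follicle sums. They were gata1a, at 279 and 255 late, and a CYP11A1 gene, at 3512 to 7490 over the 6 stages. Late, alas2 was at 29.7 and 49.6, and hbbe3, hbae1.1 and hbaa1 were at 3.98 or below. The reads of the 6 genes per library ranged from 228 for BTG4 in the bound fraction at 5.3 hpf to 54776 for BTG4 in the unbound fraction at 128-cell.

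Set per transcript length, BTG4 was the most abundant of the 6 in the early unfractionated libraries, at 755 to 879 TPM, a relative abundance corrected for transcript length. CNOT8 followed at 211 to 302 TPM and patl1 at 132 to 146 TPM. XRN1, at 71.5 to 85.6 TPM, and DDX6, at 74.2 to 84.4 TPM, overlapped each other. CNOT7 was lowest at 27.5 to 50.1 TPM. At 5.3 hpf the order was CNOT8 (181 TPM), patl1 (132), XRN1 (88.5), DDX6 (32.7), BTG4 (23.6) and CNOT7 (10.8).

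BTG4 (ENSDARG00000035171.5), an adaptor known from mouse to join CCR4-NOT to maternal mRNA, was the only one of the 6 to pass as lower in the bound than in the unbound fraction in the fit over all 6 stages. At 1-cell its deposited counts in the 2 fractions were about level, which depends on how the fractions are scaled to each other. Its bound level dropped at 16-cell, before its unfractionated level did. In the bound libraries its normalized counts were 20392 at egg, 19493 at 1-cell, 5084 at 16-cell, 4197 at 128-cell, 398 at 3.5 hpf and 189 at 5.3 hpf. In the unbound libraries they were 25162, 19280, 23265, 34099, 10467 and 1513 in the same order, and in the unfractionated libraries 27186, 22355, 25188, 23343, 7307 and 879. The bound level was thus 3.83-fold lower at 16-cell than at 1-cell, while the unfractionated level stayed between 22355 and 27186 through 128-cell. At egg, 1-cell and 16-cell the unfractionated count exceeded those of both fractions, so counts of different kinds of library are not on a common scale there. The unfractionated levels of the early and late stages did not overlap. Here and below, stages that do not overlap, or are apart, are a description of 4 early and 2 late libraries. The share of all genes for which this holds was not determined.

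**Figure D1:**
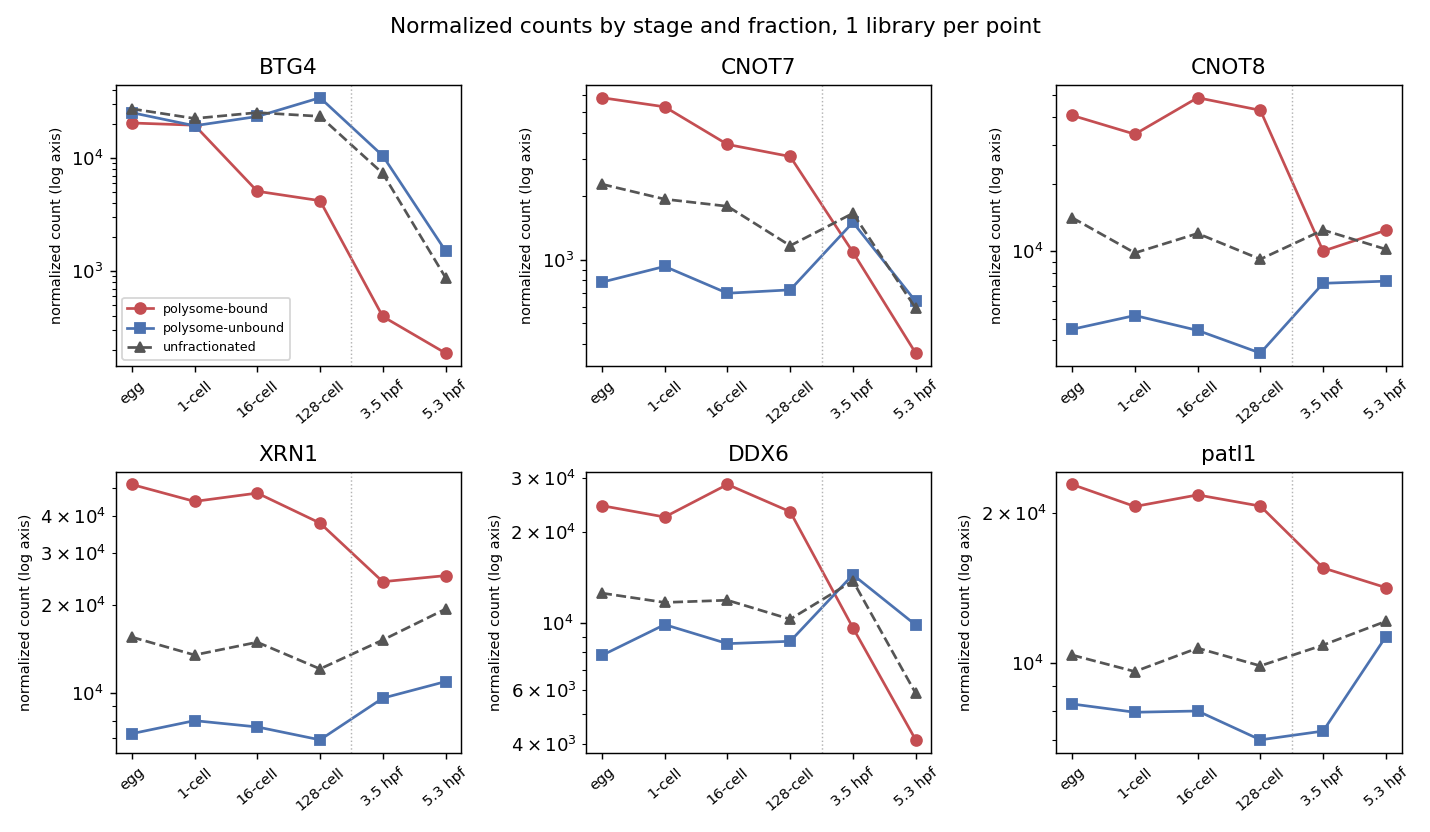
Normalized counts (log axis, different range in each panel) of the 6 mRNAs at the 6 stages in the polysome-bound, polysome-unbound and unfractionated libraries, 1 library per point, with a dotted line between the early and late stages. The bound level of BTG4 is 19493 at 1-cell and 5084 at 16-cell, while the bound level of CNOT8 stays at 33416 to 48661 through 128-cell and is 10028 at 3.5 hpf.

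The BTG4 ratio of bound over unbound, as log2 with 1 added to each count, was −0.30 at egg, 0.02 at 1-cell, −2.19 at 16-cell, −3.02 at 128-cell, −4.71 at 3.5 hpf and −3.0 at 5.3 hpf. Ranked among the 24893 genes tested, it stood at the 38.1st percentile at egg, the 49.3rd at 1-cell and the 4.8th at 16-cell, and at the 1.5th, 1.9th and 0.7th thereafter. A rank within 1 stage does not depend on how the libraries are scaled to each other. From 1-cell to 16-cell the log2 ratio of BTG4 moved by −2.21, against a median of 0.01 over all genes, and 2210 of 24893 genes had a more negative shift. Over the early stages the slope was −1.04 ± 0.18 (SE, 8 libraries) log2 units per stage step and passed the test (limma adjusted p = 0.00642). It was the only slope of the 6 to pass, against 4.70% of all genes with a falling and 4.05% with a rising slope. The slope kept its sign, at −1.52 to −0.87 over 13 alternative settings. It did not pass in edgeR on the transcript (−1.03, adjusted p = 0.286) or without the mean-variance trend of limma (−1.04, 0.361). There 0 of 36882 transcripts and 0 of 22250 genes passed, so the loss of the call is not particular to BTG4. The unadjusted p of BTG4 was 0.0121 in edgeR, against 0.000149 in the main limma test. Nor did the slope pass scaled to 4 control-like entries of the transcript tables (0.483) or without 128-cell (0.194). In these settings 82 of 22250 and 160 of 21613 genes had a falling slope.

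The other slopes over the early stages were small. They were −0.26 ± 0.13 (SE) for CNOT7, 0.21 ± 0.14 for CNOT8, −0.09 ± 0.12 for XRN1, −0.01 ± 0.13 for DDX6 and 0.04 ± 0.12 for patl1, and the adjusted p was 0.293 to 0.984. The signs for XRN1, DDX6 and patl1 turned in at least 1 alternative setting.

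CNOT8 (ENSDARG00000020043.7) and CNOT7 (ENSDARG00000032116.8) are paralogous nuclease subunits of CCR4-NOT that remove adenosines from the tail. In the deposited normalized counts, the bound over unbound ratio of CNOT8 was higher at each early stage than at either late stage. Bound libraries gave normalized counts of 40566 at egg, 33416 at 1-cell, 48661 at 16-cell, 42745 at 128-cell, 10028 at 3.5 hpf and 12425 at 5.3 hpf. The unbound libraries held 4482, 5165, 4432, 3507, 7197 and 7356 in that order. In both fractions the early and late stages were apart, the bound level being lower and the unbound level higher late. The unfractionated libraries held 14144, 9838, 12026, 9221, 12460 and 10219, with the late values inside the early range. At 3.5 hpf the unfractionated count of CNOT8 exceeded those of both fractions, so the kinds of library are not on a common scale there either. Early, its log2 ratio was 2.69 to 3.61, with CNOT8 at the 92.5th to 98.6th percentile. It was 0.48 at 3.5 hpf (70.1st percentile) and 0.76 at 5.3 hpf (87.1st percentile).

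CNOT7 was likewise high in the bound fraction early. Bound libraries held 5853 normalized counts at egg, 5299 at 1-cell, 3518 at 16-cell, 3084 at 128-cell, 1087 at 3.5 hpf and 362 at 5.3 hpf. The unbound values were 784, 931, 695, 721, 1505 and 636, and the unfractionated values 2281, 1937, 1793, 1167, 1661 and 590. Only the bound levels were apart between early and late stages. At 3.5 hpf the unfractionated count of CNOT7 too exceeded those of both fractions. The log2 ratio was 2.09 to 2.90 early (88.5th to 94.2nd percentile), −0.47 at 3.5 hpf (43.5th) and −0.81 at 5.3 hpf (28.8th).

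DDX6 (ENSDARG00000061338.5) is a DEAD-box helicase that represses translation and activates decapping, and its mRNA too stood high in the ratio early and low late. Its counts were 24330, 22325, 28582, 23242, 9634 and 4117 in the bound libraries from egg to 5.3 hpf. They were 7815, 9870, 8542, 8696, 14409 and 9844 in the unbound and 12531, 11676, 11874, 10282, 13747 and 5862 in the unfractionated libraries. The bound fraction alone separated early from late stages, and the highest unbound and unfractionated values were both those of 3.5 hpf. DDX6 stood at the 75.4th to 82.1st percentile of the ratio early, at the 40.6th at 3.5 hpf and at the 13.1st at 5.3 hpf.

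XRN1 (ENSDARG00000091652.3), the exonuclease that digests decapped mRNA from the 5' end, ranked high in the ratio at all 6 stages. Its bound counts were 51412, 44996, 48042, 37954, 23941 and 25115 from egg to 5.3 hpf, against 7254, 8035, 7647, 6910, 9589 and 10922 unbound. The unfractionated values were 15495, 13461, 14883, 12066, 15145 and 19311. Bound and unbound levels were each apart between early and late stages, yet in the deposited counts the bound level exceeded the unbound one at all 6 stages. That depends on how the fractions are scaled to each other. Scaled to the control-like entries, the log2 ratio of XRN1 was 0.02 at 1-cell and −0.33 at 3.5 hpf. Its percentile was 91.1 to 93.8 early, 87.3 at 3.5 hpf and 94.1 at 5.3 hpf.

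patl1 (ENSDARG00000017423.10), which in human cells bridges the deadenylated 3' end and the decapping enzyme, had the narrowest range in the unfractionated libraries. Bound counts were 22846, 20632, 21767, 20670, 15527 and 14176 from egg to 5.3 hpf. Unbound counts were 8273, 7962, 8009, 7008, 7298 and 11297, and unfractionated counts 10375, 9613, 10713, 9869, 10866 and 12128. Its highest unfractionated value was 1.26-fold its lowest. Early and late stages were apart in the bound and unfractionated libraries and overlapped in the unbound ones. The unfractionated gap was narrow, between 10713 at 16-cell and 10866 at 3.5 hpf. It stood at the 77.2nd to 83.6th percentile early and at the 83.6th and 76.2nd late.

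**Figure D2:**
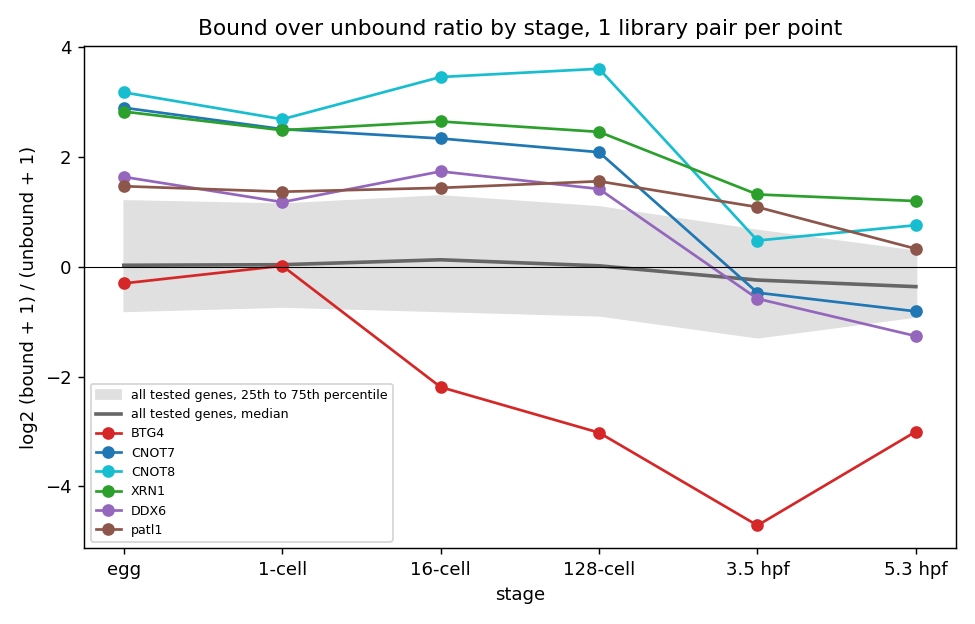
Bound over unbound ratio (log2 of counts plus 1) of the 6 mRNAs by stage, with the median and the 25th to 75th percentile of the 24893 tested genes in grey, 1 pair of libraries per point. CNOT7, CNOT8, XRN1, DDX6 and patl1 lie at or above 1.18 at the early stages, CNOT7 and DDX6 lie below 0 at the late stages, and BTG4 lies at or below −2.19 from 16-cell on.

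Bound and unbound fractions were compared over all 6 stages, with stage as a block, to ask which of these mRNAs were enriched on polysomes. CNOT8 was enriched 5.14-fold on polysomes (log2 2.36 ± 0.44 SE, 12 libraries, limma adjusted p = 0.00544). XRN1 was 4.46-fold higher (2.16 ± 0.31, adjusted p = 0.00159) and patl1 2.31-fold higher (1.21 ± 0.27, adjusted p = 0.0115). BTG4 was 4.60-fold lower (−2.20 ± 0.53, adjusted p = 0.018). CNOT7 (1.43 ± 0.49, adjusted p = 0.071) and DDX6 (0.69 ± 0.42, adjusted p = 0.311) did not pass. Thus 3 of 6 were higher and 1 lower, against 8.46% higher and 7.10% lower of all genes.

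The higher calls rest on how the fractions are scaled to each other. These control-like entries, whose origin the labels do not give, held 0.824% to 2.25% of bound reads and 0.52% to 1.1% of unbound reads. With libraries scaled to them, the log2 values were 0.88 for CNOT8 (adjusted p = 0.12), 0.68 for XRN1 (0.217), −0.27 for patl1 (0.625), −0.05 for CNOT7 and −0.79 for DDX6. That scaling moved the median of all tested genes from −0.01 to −1.35, and BTG4 remained lower at −3.68 (adjusted p = 8.44e-06). Under it 161 of 24893 genes were higher and 12588 lower. By stage, it put the log2 ratio of BTG4 at −1.98 at egg, −2.45 at 1-cell and −4.23 at 16-cell. CNOT8 then stood lower at 1-cell (0.23) than at 5.3 hpf (0.95), and so did DDX6 (−1.29 and −1.07). At the other early stages both stayed above their late values. Of 6 stages, the bound level then exceeded the unbound one at 5 for CNOT8 and XRN1 and at 4 for CNOT7. That count was 2 for patl1, 1 for DDX6 and 0 for BTG4. The BTG4 call ended without 16-cell (adjusted p = 0.0555), without 128-cell (0.0688), without the trend (0.0638), without the stage block (0.325) and in edgeR on its transcript (−2.23, 0.122). The patl1 call ended without 16-cell (0.0558) and scaled to library totals (0.63, 0.0723).

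Late and early stages were set against each other in this ratio to ask if the decay mRNAs left polysomes when maternal mRNA was cleared. CNOT7 had the largest drop of the 6, with a log2 change of the ratio of −3.10 ± 0.37 (SE, 12 libraries, limma adjusted p = 0.00529). CNOT8 changed by −2.62 ± 0.40 (adjusted p = 0.00812) and DDX6 by −2.41 ± 0.39 (adjusted p = 0.00928). Thus 3 of 6 fell, against 5.39% of all genes, whose median change was −0.51. BTG4 had a similar estimate with a larger error (−2.48 ± 0.85, adjusted p = 0.112), and its ratio ran from −3.02 to 0.02 among the early stages alone. XRN1 (−1.34 ± 0.37, adjusted p = 0.0591) and patl1 (−0.75 ± 0.38, adjusted p = 0.262) did not pass. These 3 calls ended in edgeR on transcripts (−3.35, −2.33 and −2.13 in the same order, adjusted p = 0.0575 to 0.0622), without 3.5 hpf (−3.27, −2.48 and −2.75, 0.0542 to 0.0675) and without the trend (same values, 0.0842 each). Those settings called few features at all as falling, 37 of 44332 transcripts, 0 of 24476 genes and 1 of 24893 genes. Scaled to the control-like entries the calls ended at −1.97, −1.49 and −1.29 (adjusted p = 0.236 to 0.55, all-gene median 0.50), and that of DDX6 also ended without 5.3 hpf (−2.07, 0.0518). Under the control-like scaling 29 of 24893 genes had a falling ratio. CNOT7, CNOT8 and DDX6 all passed with the unfractionated library in place of the unbound one (−1.95, −1.89 and −1.60, adjusted p = 0.0246 to 0.0283). BTG4 passed without 128-cell (−3.03, adjusted p = 0.0359).

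**Figure D3:**
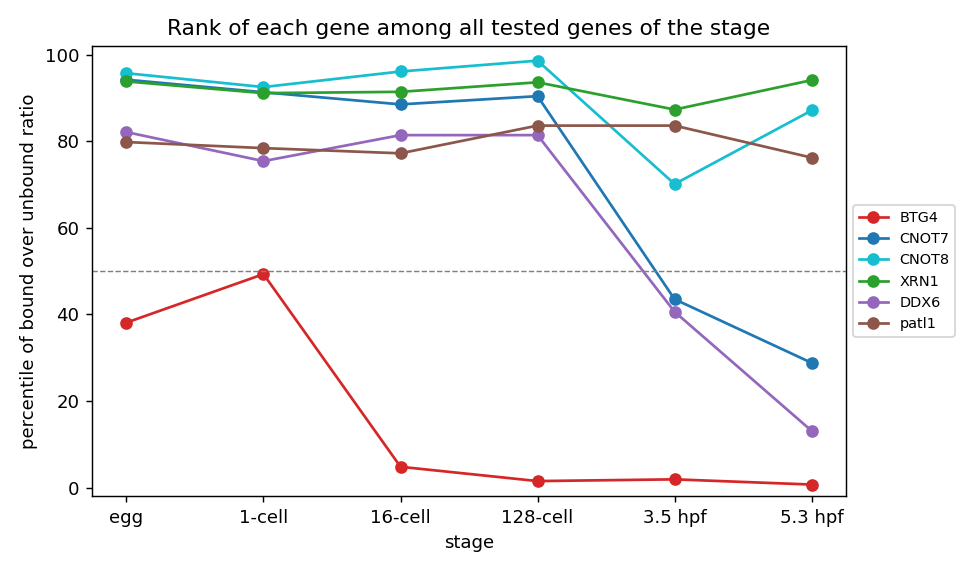
Percentile of the bound over unbound ratio of each mRNA among the 24893 tested genes of the same stage, with a dashed line at the 50th percentile. CNOT7 goes from the 88.5th percentile or above at the early stages to the 43.5th and 28.8th, DDX6 from 75.4 or above to 40.6 and 13.1, whereas XRN1 stays at 87.3 or above and patl1 at 76.2 or above.

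Testing each fraction alone, which was added after the ratios had been seen, gave more calls in the bound than in the unbound fraction. In the 6 bound libraries, 5 of 6 mRNAs were lower at the late stages, against 14.4% of all genes. BTG4 was 34.9-fold lower (log2 −5.12 ± 0.74 SE, adjusted p = 0.00259), CNOT7 6.82-fold (−2.77 ± 0.51, 0.00629), DDX6 3.89-fold (−1.96 ± 0.38, 0.00722), CNOT8 3.67-fold (−1.88 ± 0.28, 0.0028) and XRN1 1.85-fold (−0.89 ± 0.26, 0.0332). The value for patl1 was −0.53 ± 0.25 (adjusted p = 0.142). The calls for BTG4 and CNOT7 passed in all 15 alternative settings, and that for XRN1 ended in 7 of 15.

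In the 6 unbound libraries CNOT8 was 1.67-fold higher late (0.74 ± 0.23, adjusted p = 0.0479) and BTG4 6.26-fold lower (−2.65 ± 0.66, 0.0228), against 17.1% higher and 11% lower of all genes. The CNOT8 call ended in 11 of 15 alternative settings, and that for BTG4 in 5 of 15. The BTG4 value was −4.04 without 3.5 hpf and −1.25 without 5.3 hpf. CNOT7 (0.33 ± 0.39), XRN1 (0.46 ± 0.21), DDX6 (0.45 ± 0.25) and patl1 (0.22 ± 0.25) did not pass (adjusted p = 0.137 to 0.539). These 4 values turned negative with median centring.

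Late against early unfractionated libraries show which decay mRNAs were themselves lower at the end of the series. BTG4 was 9.64-fold lower (−3.27 ± 0.70 SE, 6 libraries, limma adjusted p = 0.0113), with 7307 normalized counts at 3.5 hpf and 879 at 5.3 hpf. It was the only one of the 6 to pass, against 13.0% of genes that were lower and 22.5% that were higher. The values were −0.82 ± 0.45 for CNOT7, 0.02 ± 0.23 for CNOT8, 0.30 ± 0.20 for XRN1, −0.36 ± 0.32 for DDX6 and 0.18 ± 0.17 for patl1 (adjusted p = 0.19 to 0.958). CNOT7 and DDX6 were lowest at 5.3 hpf, at 590 and 5862 counts. With 5.3 hpf as the only late stage, 1 library, their values were −1.56 and −0.98. In whole embryos a smaller number of cells that carry an mRNA and less of it per cell cannot be told apart. BTG4 was at −4.80 without 3.5 hpf and at −1.74 without 5.3 hpf, and its call ended in edgeR on its transcript (−2.61, adjusted p = 0.0748).

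**Figure D4:**
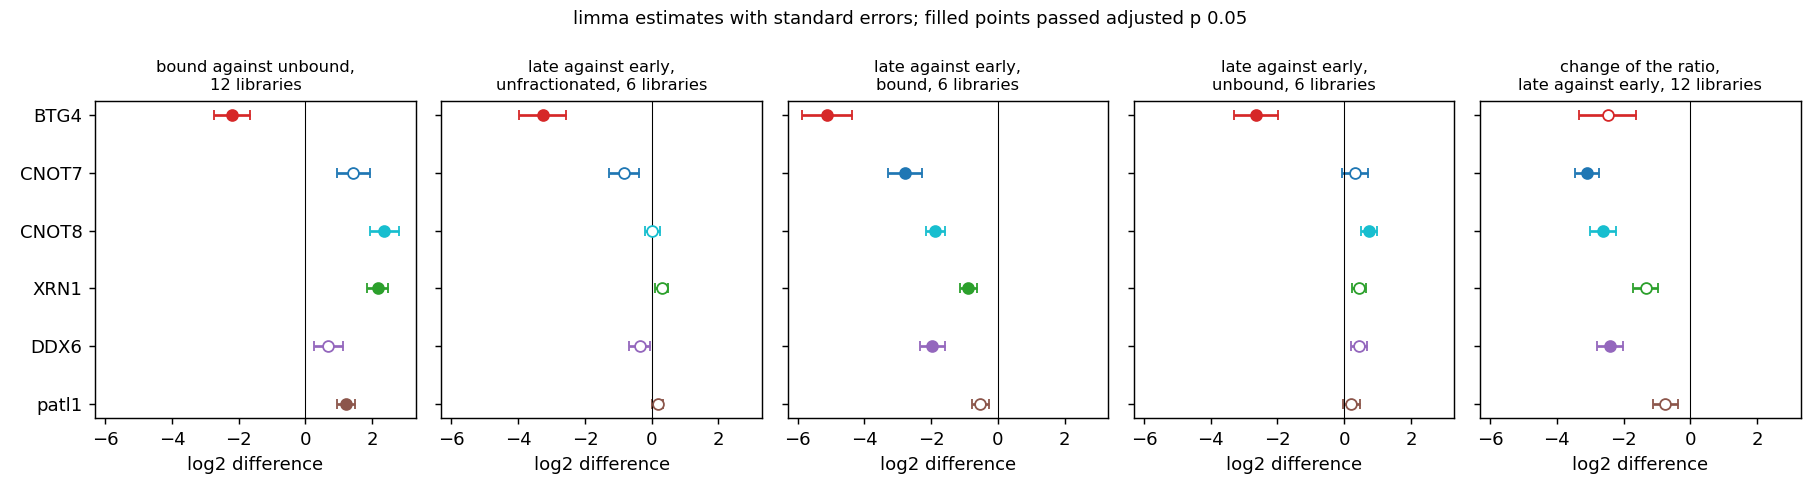
Log2 differences of the 6 mRNAs in 5 comparisons (limma estimates with standard errors as bars, filled where the adjusted p over all genes was under 0.05). BTG4 lies left of 0 in all 5, and CNOT7, CNOT8 and DDX6 lie at −0.82, 0.02 and −0.36 in the unfractionated libraries (open points) and at −2.77, −1.88 and −1.96 in the bound ones (filled).

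The transcripts behind the gene values could be found for all 6, because the gene values were proportional over the 18 libraries to the summed reads per length of 1 to 3 transcripts (relative misfit at most 0.00014). BTG4, CNOT8 and DDX6 each had 1 transcript, XRN1 had 2, and CNOT7 and patl1 had 3. Salmon divides reads that overlapping transcripts share by a model, so the split between transcripts of 1 gene is an estimate.

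The leading CNOT7 transcript was not the same at the start and the end of the series. A 2242 nt transcript made up 77.8% to 84.5% of CNOT7 TPM in the early unfractionated libraries, 51.8% at 3.5 hpf and 20% at 5.3 hpf. A 776 nt transcript made up 15% to 21% early, 43.8% at 3.5 hpf and 75.4% at 5.3 hpf. The longer one went from 41.4 TPM at egg to 2.15 TPM at 5.3 hpf, while the shorter one was at 8.15 and 8.11 TPM at these stages. On polysomes the longer one held 58.3, 55.3, 34.5, 29.5, 5.4 and 0.269 TPM from egg to 5.3 hpf. edgeR gave it a late change of −4.21 in the bound libraries (adjusted p = 0.047) and of −1.62 in the unfractionated ones (adjusted p = 0.195). The 776 nt transcript had 0 reads in the unbound libraries of 1-cell and 16-cell, 19 at egg and 50.5 at 128-cell, against 481.2, 574.8, 288.7 and 296.1 in the bound libraries of egg to 128-cell. At 3.5 and 5.3 hpf it had 420.7 and 226.6 reads unbound and 302.6 and 116.9 bound. Its bound over unbound ratio did not pass in edgeR (adjusted p = 0.332), nor did its late change in the unfractionated libraries (0.85, adjusted p = 0.284), and the difference between the transcripts was not tested.

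A short transcript of patl1 rose at the late stages. An 857 nt transcript had 7.4, 10.1, 12 and 1.3 reads in the unfractionated libraries of egg to 128-cell, 349.7 at 3.5 hpf and 406.2 at 5.3 hpf. In TPM this was 0.0758 to 0.684 early and 15.8 and 17.1 late, or 9.84% and 12.9% of patl1 TPM. edgeR gave it a rise of 5.43 on the log2 scale (adjusted p = 0.0115) in the unfractionated libraries and of 6.31 in the bound ones (adjusted p = 0.0206). Its unbound value was 4.59 (adjusted p = 0.094). The 2847 nt transcript that carries 98.8% of patl1 reads was at −0.08 in the unfractionated libraries (adjusted p = 0.758).

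**Figure D5:**
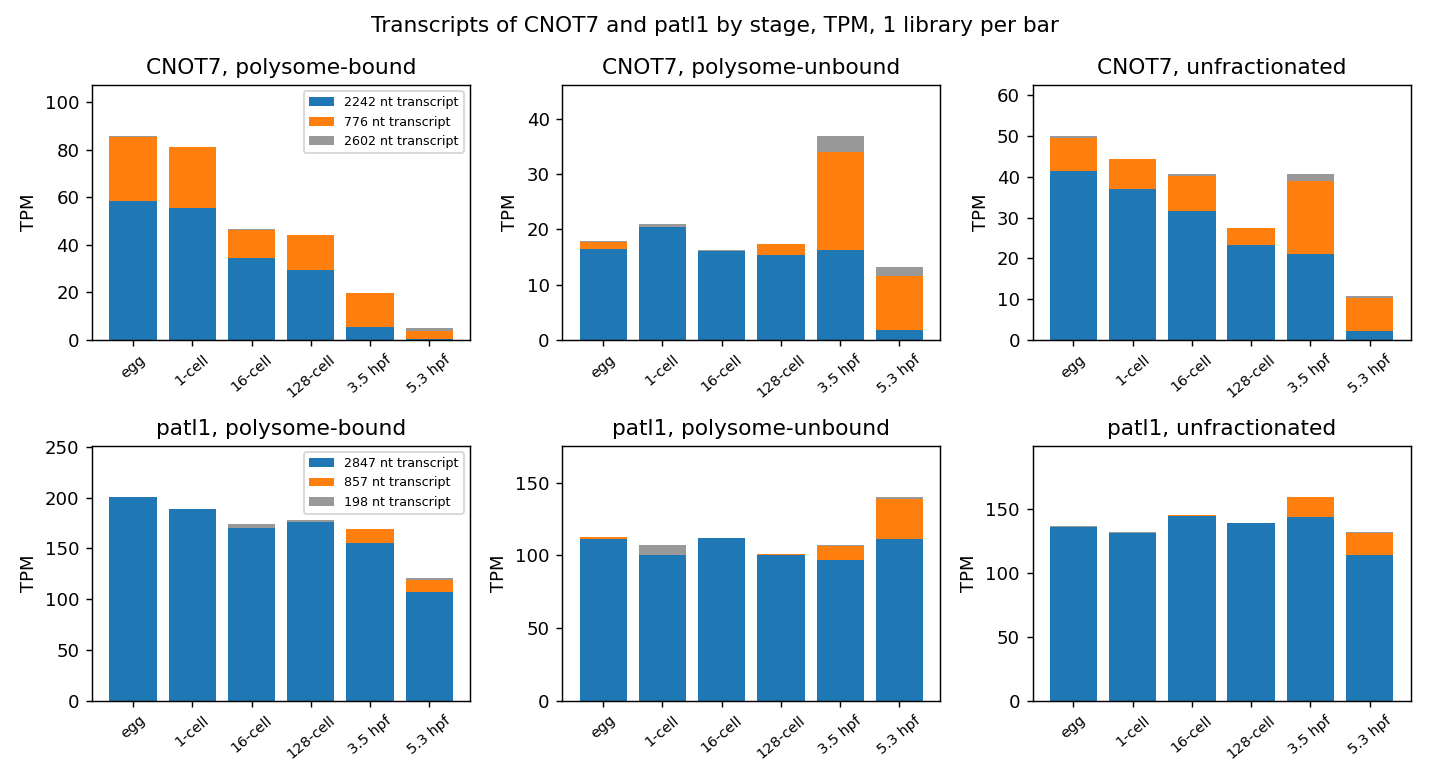
TPM of the transcripts of CNOT7 and patl1 by stage in the 3 kinds of library, stacked, 1 library per bar, each panel with its own axis from 0. The 2242 nt transcript of CNOT7 shrinks from 58.3 to 0.269 TPM in the bound libraries, and the 857 nt transcript of patl1 is seen at 3.5 and 5.3 hpf.

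Other genes of the decay pathway were taken from lists and tested on the table as deposited only. Other scalings moved the median of all genes in these tests, to −1.35 at the lowest in bound against unbound, from 0.23 to −0.28 with median centring in the unfractionated libraries and from −0.51 to 0.50 with the control-like entries in the change of the ratio.

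Over 8 lists with 91 such genes, 20 were higher and 11 lower in bound against unbound, where 8.46% of all genes were higher and 7.10% lower. In the unfractionated libraries 2 rose and 24 fell late, against 22.5% and 13.0% of all genes. The late ratio rose for 3 and fell for 18, against 2.36% and 5.39%. Few features passed at all in other settings of this comparison. Scaled to the control-like entries, 315 of 24893 genes rose and 29 fell, and without the trend 0 rose and 1 fell. edgeR gave 92 rising and 37 falling of 44332 transcripts. The calls for the lists are those of the main test only.

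Among other CCR4-NOT genes the late change of the ratio passed for 1 of 12, upward. In bound against unbound, 2 of the 12 were higher and 1 was lower, where the shares of all genes were 2.36% for a rising ratio, 8.46% for higher and 7.10% for lower. CNOT1, the scaffold, was among the higher ones (1.49 ± 0.30 SE, adjusted p = 0.0077), as was CNOT11 (1.01 ± 0.30, 0.0422), and 1 of 2 genes named CNOT4 was lower (−1.17 ± 0.25, 0.0107). CNOT3 rose in ratio (1.5 ± 0.36, adjusted p = 0.0372). From early to late unfractionated libraries 4 fell, against 13.0% of all genes, and CNOT1 rose (0.74 ± 0.21, adjusted p = 0.0301), with cnot6b (−1.63 ± 0.40) and CNOT10 (−1.26 ± 0.32) among those that fell. The median change of the ratio was −0.33 for these 12, against −2.45 for the 6 mRNAs and −0.51 for all genes.

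Of 5 further BTG and TOB adaptors, the ratio fell late for btg3 (−2.22 ± 0.39, adjusted p = 0.012) and tob1b (−1.78 ± 0.33, 0.014), against 5.39% of all genes. BTG1 was lower in the bound fraction (−0.75 ± 0.23, adjusted p = 0.0454), as were 7.10% of all genes. It rose in the unfractionated libraries (2.71 ± 0.37, adjusted p = 0.0021), where BTG4 fell and 22.5% of all genes rose. Among 9 genes listed as other deadenylases, 3 were lower in the bound fraction (7.10% of all genes), namely parn and a pair of genes named NOCT. In the unfractionated libraries 4 fell (13.0% of all genes), among them parn, angel1 and a NOCT gene. The ratio of PAN3 fell (−2.71 ± 0.62, adjusted p = 0.0289), against 5.39% of all genes. Whether each listed gene acts on mRNA tails was not tested. parn, the poly(A)-specific ribonuclease, was among those lower in both (−1.04 ± 0.29 and −1.80 ± 0.37).

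Among 11 other decapping factors, bound against unbound gave 3 higher and 2 lower, against 8.46% and 7.10% of all genes. The decapping enzyme DCP2 was higher (1.13 ± 0.27, adjusted p = 0.0161), as was LSM14A (1.75 ± 0.28, 0.00239), and dcp1a was lower (−1.31 ± 0.28, 0.0103). patl2, the paralog of patl1 known from Xenopus oocytes, was lower in the bound fraction (−1.89 ± 0.29, adjusted p = 0.00193). It also fell late in the unfractionated libraries (−2.03 ± 0.54, adjusted p = 0.0235), as did 13.0% of all genes. The late ratio fell for lsm14aa (−2.10 ± 0.35, adjusted p = 0.0101) and DCP1B (−1.97 ± 0.40, 0.0193), against 5.39% of all genes. Of 8 LSM ring genes, which bind the shortened tail, 4 were higher and 1 was lower in bound against unbound (8.46% and 7.10% of all genes). The ratio fell for 3 of them (5.39% of all genes), LSM4 (−2.15 ± 0.38) and a pair of genes named LSM2 (−2.48 ± 0.48 and −2.07 ± 0.42).

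Of 16 other exonuclease and exosome genes, 6 were higher and 2 lower on polysomes, against 8.46% and 7.10% of all genes. EXOSC7 had the smallest p (2.61 ± 0.34, adjusted p = 0.00104), and XRN2, the nuclear counterpart of XRN1, was higher too (1.91 ± 0.34, 0.00415). Their late ratio rose for EXOSC9 (2.55 ± 0.40, adjusted p = 0.00889), fell for EXOSC7 (−1.97 ± 0.32, 0.00955) and did not pass for 14, with 2.36% of all genes rising and 5.39% falling.

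Genes listed as recruiters of decay enzymes included some whose ratio fell late. Of 22, 9 fell and 1 rose, against 5.39% and 2.36% of all genes. Among them were the Argonaute genes ago3a (−2.11 ± 0.35, adjusted p = 0.00973), AGO1 (−2.42 ± 0.40, 0.0101), AGO2 (−1.99 ± 0.35, 0.0114) and AGO4 (−2.22 ± 0.42, 0.0144), which carry microRNAs, and TNRC6A (−2.48 ± 0.55, 0.0271), which links Argonaute to CCR4-NOT. PUM3 rose (3.27 ± 0.48, adjusted p = 0.00771). Whether PUM3 and the other listed genes bring deadenylases to mRNA was not tested. The median for this list was −1.46. On polysomes 5 were higher and 1 lower (8.46% and 7.10% of all genes), KHSRP with the smallest p (2.22 ± 0.36, adjusted p = 0.00242), and in the unfractionated libraries 5 fell (13.0% of all genes). The late ratios of 8 poly(A)-binding and uridylation genes did not pass, with a median of 0.69, and 3 of the 8 fell in the unfractionated libraries (13.0% of all genes), among them TENT2 (−1.47 ± 0.22, adjusted p = 0.00311).

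The early slope of the ratio rose for 13 of the 91 genes and fell for 10, against 4.05% and 4.70% of all genes. Without the trend 0 of 22250 genes passed with a rising or falling slope, so these calls ended there. In edgeR 0 of 36882 transcripts passed. Scaled to the control-like entries, 29 of 22250 genes rose and 82 fell. The exonuclease list had 4 rising and 0 falling, among them DIS3 (0.66 ± 0.14, adjusted p = 0.0175), DIS3L2 (0.61 ± 0.14, 0.0196) and XRN2 (0.55 ± 0.13, 0.0214). LSM14B (0.79 ± 0.12, adjusted p = 0.00343) and EDC3 (0.77 ± 0.14, 0.00785) also rose. Of those that fell, ZFP36L2 had a slope of −0.92 ± 0.12 log2 units per step (adjusted p = 0.00216), eif4enif1 of −0.99 ± 0.13 (0.00227), angel1 of −0.93 ± 0.15 (0.00358), PABPC1L of −0.94 ± 0.15 (0.00399) and TENT2 of −1.07 ± 0.18 (0.0052).

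Over the 18 libraries, as a description, the 6 mRNAs fell into different patterns. The log2 levels of XRN1 correlated with those of patl1 at r = 0.977 and with those of CNOT8 at r = 0.954, those of CNOT7 with DDX6 at r = 0.935, and those of BTG4 with the other 5 at r = −0.353 to 0.419. The 18 points share fractions and stages. Among 16468 genes with a symbol, those most like BTG4 were bmp15 (r = 0.992), cdca9 (0.991) and ppp1r3c2b (0.987), and those most like CNOT8 were CCNB1 (0.983), RRAS (0.979) and AGO2 (0.978). For XRN1 they were exd3 (0.993), IDE (0.993) and GPT2 (0.990), and for CNOT7 DENND6B (0.977), si:ch211-266k8.4 (0.967) and KBTBD2 (0.966). DDX6 was most like TENT4A (0.977), dnajc5ga (0.973) and lrp10 (0.969), and patl1 most like GDPD5 (0.983), RCC1 (0.980) and septin15 (0.979).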

How the data were processed

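The 18 libraries were stranded and depleted of rRNA, per the labels. Per the submitters' processing notes, GRCz10 was the build and the tools included Salmon 0.6.0, STAR 2.4.2a, Cufflinks 2.2.1, GSNAP and DESeq2, whose roles and order are not given in the sources used here. The authors deposited estimated counts and TPM per transcript (52340 entries, per the file headers) and 1 gene table of normalized counts, a signal treated here as reads divided by 1 factor per library. Those factors were recovered from its lowest values. For the 6 genes the values also followed the reads per effective length, so a shift between transcripts of unequal length is already corrected in them.

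Gene symbols came from a name table that matched 22547 of 25935 Ensembl identifiers. The members and lists were chosen with earlier results of these data known, and processing followed that earlier work. The main test, two-sided, was that of limma 3.58.1 (trend of variance on level) applied to log2(normalized count + 1). Genes needed 10 normalized counts or more in 2 or more of the libraries fitted, with Benjamini-Hochberg adjustment over all genes tested (22250 to 24893) and a threshold of 0.05. Fold changes are on this scale. Residual degrees of freedom were 5 for bound against unbound, 4 for late against early and for the change of the ratio, and 2 for the early slope, which takes stage steps as equal. edgeR 4.0.16 (quasi-likelihood) on rounded estimated counts per transcript was an alternative, read for the transcript with the most reads of each gene, besides other scalings, pseudocounts, no filter, no trend, no stage block, another reference and each stage left out. The 4 control-like entries had at most 59 reads in the unfractionated libraries, so they were used for the fractions only. The scripts were tested on simulated data. Genes named are the 6 members, up to 3 genes of a list with the smallest p in a comparison, and for each member the 3 genes with the highest correlation among those with a mean of at least 50 counts. DCP2, XRN2, AGO2, AGO4 and TNRC6A fall outside that rule and were named after their values were seen.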

Additional observations from a re-analysis of the deposited data

Results flagged for a closer look

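The bound over unbound ratio differed between late and early stages for 3 mRNAs, by the test of the difference itself: CNOT7 (−3.10 on the log2 scale), CNOT8 (−2.62) and DDX6 (−2.41). Among the 18 sets of 4 early libraries (6 mRNAs in 3 kinds of library), none held a library apart from the other 3 by Dixon's criterion, which chance alone would meet in about 1 of 20. The 4 libraries are different stages and not replicates. The criterion looks for 1 library apart and cannot flag a split of 2 against 2, as in the bound counts of BTG4. It therefore does not show whether early stages differ.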

How the results depend on the processing

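The labels give no replicate numbers, so bound and unbound libraries were paired by stage. Of the values recomputed for the 6 mRNAs under alternatives, 452 kept direction and side of the threshold, 52 lost the call, 9 gained one and 33 changed sign.

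The numbers of mRNAs that passed changed as follows. Scaling to the control-like entries took the higher ones in bound against unbound from 3 to 0 and the falling ratios from 3 to 0. It also took the falling slopes from 1 to 0 and the lower ones in the bound libraries from 5 to 2. Under it 1028 of 23321 genes were lower in the bound libraries, against 3355 in the main test. Leaving out the trend, or edgeR on transcripts, took to 0 the lower ones in bound against unbound, the falling ratios and slopes, and both calls in the unbound libraries. Without the trend 1 of 24893 genes had a falling ratio and 0 of 22250 a falling slope, and edgeR gave 37 of 44332 and 0 of 36882 transcripts, so for the ratio and the slope the drop to 0 is shared by nearly all genes. edgeR also took the lower ones in the unfractionated libraries to 0, where 1765 of 40813 transcripts were lower. Median centring took them to 2, with 6589 of 23949 genes lower, against 3120 in the main test. Without the stage block the lower ones in bound against unbound were 0 (BTG4 adjusted p = 0.325), where 395 of 24893 genes were lower. In that comparison 1004 of 24893 genes were lower without the trend and 389 of 44332 transcripts in edgeR, against 1768 genes in the main test. In the unbound libraries 3457 of 23949 genes were higher and 1187 lower without the trend, against 4091 and 2642 in the main test. There edgeR gave 1786 higher and 1155 lower of 40725 transcripts. The higher call in the unbound libraries was 0 with TMM, with median centring, scaled to the control-like entries and whenever an early stage was left out. With the control-like entries 2904 of 23949 genes were higher there.

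With a stage left out, the lower ones were 0 to 1 in bound against unbound and 0 to 1 in the unbound libraries. In the unfractionated libraries 1 was lower whichever early stage was left out. With 1 late library left, CNOT7 was at −1.56 without 3.5 hpf and −0.07 without 5.3 hpf, and DDX6 at −0.98 and 0.25. Calls in the unfractionated libraries are not counted for these fits. Falling ratios were 0 to 4 and falling slopes 0 to 1. For BTG4, late against early ran from −4.80 to −1.74 unfractionated and from −4.04 to −1.25 unbound. Late against early unfractionated ran from −0.13 to 0.16 for CNOT8 and from −0.98 to 0.25 for DDX6, and unbound from −0.29 to 0.95 for CNOT7 and from −0.10 to 0.53 for patl1. Slopes ran from −0.06 to 0.12 for DDX6 and from −0.01 to 0.09 for patl1. Where 1 late library was left, it was assumed to vary like the others.

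Signs turned mostly near 0. Scaled to the control-like entries, bound against unbound was −0.05 for CNOT7, −0.79 for DDX6 and −0.27 for patl1, the change of the ratio 0.38 for patl1, the slope 0.08 for XRN1 and 0.16 for DDX6, and late against early unbound −0.35 for CNOT7, −0.23 for XRN1, −0.23 for DDX6 and −0.47 for patl1. With median centring, late against early unfractionated was −0.49 for CNOT8, −0.21 for XRN1 and −0.33 for patl1, the slope 0.05 for DDX6, and late against early unbound −0.29 for CNOT7, −0.16 for XRN1, −0.17 for DDX6 and −0.40 for patl1. TMM gave −0.11 for CNOT8 unfractionated, and library totals a slope of 0.00 for DDX6. edgeR gave −0.07 for CNOT8 and −0.08 for patl1 unfractionated, and −1.0 for CNOT7 and −0.07 for patl1 unbound. The cause was not tested.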
